A study of Mus musculus and Bos taurus with 2 samples.

Results

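The transcript models described here are the bovine models whose exon structure was an exact match to a reference RNA that carries a noncoding accession. They were chosen by 2 fields of the deposited models, a class code of "=" and a closest reference accession of the noncoding kind, so that the match itself is not a result. The rule selected 936 models of 817 genes, out of 14580 bovine exact matches and 40819 bovine models in all. Of the 936, 71 matched a curated noncoding reference RNA and 865 a predicted one. The remaining exact matches were nearly all to protein-coding reference RNAs (13633 models), and these serve as the comparison.

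The bovine library was made from a pool of about 200 in vitro produced embryos with 8 to 16 cells, which had been inseminated 72 h earlier. The oocytes came from cattle of the Japanese Black breed or its F1 cross with Holstein, were matured in vitro and were fertilized with sperm of a bull of the Japanese Black breed. Polyadenylated RNA was read as cDNA on a nanopore sequencer after 14 PCR cycles. The other library of the series came from a pool of about 200 in vitro fertilized Slc:ICR mouse embryos at the late 2-cell stage, 36 h after insemination. With 1 library per species, replicate error cannot be given and no test was made. The files hold no read counts, so the depth behind a model is unknown, and a missing model does not show that an RNA was absent. The 95% intervals given with shares are exact (Clopper-Pearson); they cover counting error alone and treat models as independent.

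The library held models of all 5 listed markers of embryos at genome activation. ZSCAN4 had 7 models on its own strand, CCNA1 9, KLF17 5, DUXA 2 and ARGFX 2. In a separate list of 20 activation genes, 11 had such a model. Oocyte and early embryo markers had one in 6 of 7 cases, with 0 for NOBOX, and the pluripotency markers in 3 of 3. Of the cumulus and granulosa cell markers, 3 of 7 had a model (HAS2, VCAN and TNFAIP6, with 3 each), while FSHR, CYP19A1, AMH and PTX3 had 0. Of the sperm markers 2 of 4 had a model, TNP1 and ODF1 with 1 each, and PRM1 and PRM2 had 0. The blood markers PTPRC, CD3E, HBB and HBA had 1 model each. Whether other cells of the pool contributed noncoding models was not tested.

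A noncoding RNA is one for which no protein is annotated. Long noncoding RNAs are spliced and polyadenylated like messenger RNAs but are mostly shorter and less conserved, and many start beside a coding gene on the opposite strand, where a bidirectional promoter gives rise to both. Small nucleolar RNAs and microRNAs are cut out of longer transcripts, often out of introns of a host gene. The reference also gives noncoding accessions to isoforms of protein-coding genes in which no full reading frame was accepted, many of which are targets of nonsense-mediated decay. At genome activation the embryo starts to make its own transcripts and clears those stored in the egg.

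The noncoding exact matches fell into 5 classes by gene. Genes known only by a LOC number, with no exact coding match in the library, gave 628 models of 577 genes, or 67.1% of the set (64.0% to 70.1%). Noncoding isoforms of genes that also had an exact coding match gave 226 models of 170 genes (24.1%, 21.4% to 27.0%). MicroRNA hairpins gave 38 models, and noncoding RNAs with an established name gave 11 models of 10 genes. The other 33 models belonged to 22 named genes with no exact coding match, among them ST3GAL6 with 5 models, HNRNPA1 with 4, C23H6orf52 with 3, and RPS27 and PHF12 with 2 each. ST3GAL6 encodes a sialyltransferase, HNRNPA1 a splicing regulator, RPS27 a protein of the small ribosomal subunit, and PHF12 a PHD finger protein of a corepressor complex. Most genes had a single noncoding exact match (744 of 817), and 28 genes had 3 or more.

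Exact matches were less frequent among models near noncoding references than among those near coding references. Of 3062 bovine models whose closest reference was a noncoding RNA, 936 were exact (30.6%, 28.9% to 32.2%), compared with 13633 of 32899 models closest to a coding RNA (41.4%, 40.9% to 42.0%). Class code j, given to models with at least 1 reference splice junction and other differences, applied to 45.2% of the noncoding-reference models (43.4% to 47.0%) and 39.96% of the coding-reference models (39.4% to 40.5%). Exons lying on the strand opposite to the reference, class code x, accounted for 7.22% of models near noncoding references (6.33% to 8.19%) and 3.35% of those near coding references (3.15% to 3.55%). Noncoding references took 936 of 14580 exact matches in the bovine library (6.42%, 6.03% to 6.83%) and 1689 of 17382 in the mouse library (9.72%, 9.28% to 10.2%); species, stage and reference annotation differ together and cannot be told apart.

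The noncoding exact matches were short and had few exons. The median length was 798 bp for spliced models of LOC genes (quartiles 555 and 1183 bp), with a median of 3 exons (quartiles 2 and 3), whereas coding exact matches had a median of 2113 bp and 9 exons. Models of exactly 2 exons made up 44.0% of the spliced LOC models (39.5% to 48.6%) and 4.15% of the spliced coding exact matches (3.82% to 4.50%). A single exon was found in 193 of the 936 noncoding models (20.6%, 18.1% to 23.4%) and in 284 of 13633 coding exact matches (2.08%, 1.85% to 2.34%). Noncoding isoforms of coding genes were larger, with a median of 10 exons (quartiles 6 and 14) and 2159 bp. The coding exact matches of the same genes had medians of 11 exons and 2582 bp. An exact match takes its intron chain from the reference, so these values describe which reference RNAs were found. Single exons made up 42 of the 71 models with a curated reference (59.2%, 46.8% to 70.7%) and 151 of the 865 with a predicted one (17.5%, 15.0% to 20.2%). The 42 were the 38 microRNA hairpins and 4 named noncoding RNAs, and the 151 were all of LOC genes.

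**Figure D1:**
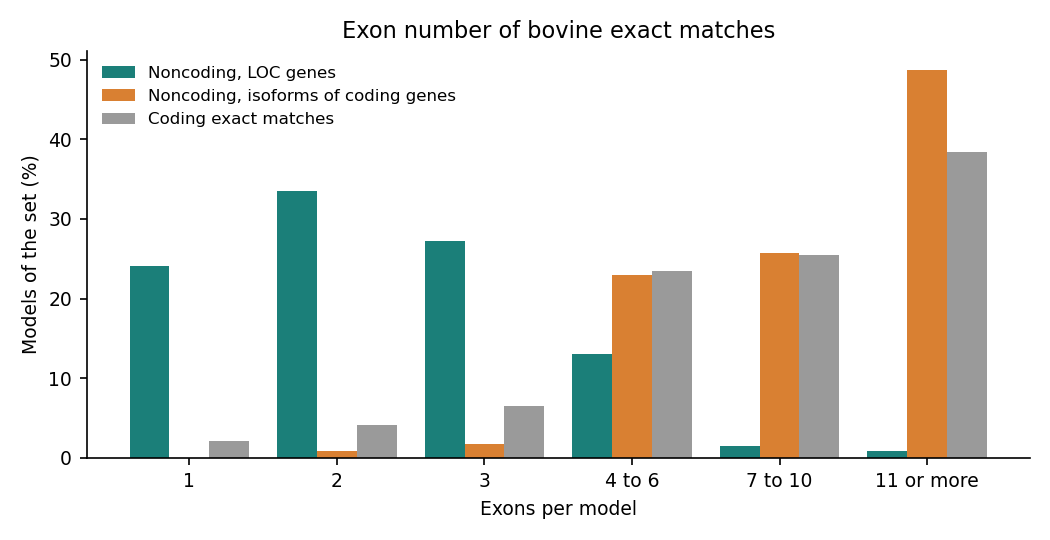
Share of models (%, vertical axis) by number of exons (horizontal axis) for 628 noncoding models of LOC genes, 226 noncoding isoforms of coding genes and 13633 coding exact matches of the bovine library. LOC models peak at 2 exons, while noncoding isoforms and coding exact matches have most of their models at 4 exons or more.

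Among the named noncoding RNAs, 4 were structural RNAs found as single exons. TERC, the template RNA of telomerase, was a model of 442 bp on chromosome 1, at 97612791 to 97613232 of the bosTau9 build. RN7SL1, the RNA of the signal recognition particle, had 299 bp on chromosome 10, and RMRP, the RNA of an RNase that cuts ribosomal RNA precursors, had 281 bp on chromosome 8. RN18S1, the RNA of the small ribosomal subunit, had 1523 bp on chromosome 27 (6224662 to 6226184), where the 153 bp model LOC112444653 (6222648 to 6222800) and the hairpin MIR2887-2 (6217555 to 6217611) lay on the same few kilobases. The mature forms of these 4 RNAs carry no long poly(A) tail in vivo, and the labels describe the library as made from polyadenylated RNA; how their models arose was not tested. Only 4 of the 20 listed structural RNAs had an exact match.

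The spliced named RNAs were mostly hosts of small nucleolar RNAs. SNHG12 had 2 models, of 5 and 6 exons and 654 and 699 bp, which began and ended at the same positions (chromosome 2, 124851182 to 124854008). SNHG3 lay on the same chromosome on the other strand, at 124914898 to 124918194, with 4 exons and 747 bp. SNHG4 (4 exons, 432 bp, chromosome 7) and DANCR (4 exons, 3211 bp, chromosome 6) completed the 4 of 38 listed host genes with a noncoding exact match. DANCR is known from work on undifferentiated progenitor cells. TUG1, a long RNA first described in the retina, had 3 exons and 4890 bp on chromosome 17, and was the only member found of 17 listed RNAs of nuclear bodies and chromatin. KANTR, named here after its model was seen, had 3 exons and 1738 bp in 23336 bp of the X chromosome.

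Several well-known noncoding RNAs had no exact noncoding match. None of the 7 listed X-inactivation genes, the 18 imprinted genes, the 26 microRNA host genes or the 32 other long noncoding RNAs was represented among the 936 models. MEG3 and MEG8, maternally expressed imprinted RNAs, and TUNAR had models on their own strand, but only with structures that differed from the reference (class code j) or, for TUNAR, were also contained in it (class code c). Symbols were matched as the files spell them, so that an RNA known in the bovine reference only by a LOC number would be missed.

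Most single-exon models were very short, although the longest, of a LOC gene, had 7086 bp. Of the 193, 145 were shorter than 200 bp (75.1%, 68.4% to 81.1%), and 160 were at most 300 bp. Among the 13633 coding exact matches and the 26239 models that were not exact matches, 0 were shorter than 200 bp, and the shortest models of these sets had 203 and 200 bp. Apart from the single-exon models, 1 spliced noncoding model fell below 200 bp (LOC101902037, 2 exons, 189 bp). The shortest member was a hairpin of 57 bp. Models below 200 bp thus occurred in the noncoding exact matches and in neither of the other sets. Whether a length minimum for assembled models or merging with the reference gave this split was not tested.

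MicroRNA hairpins, the stem-loop precursors from which microRNAs are cut, made up 38 of the single-exon models, with lengths of 57 to 118 bp and a median of 75 bp. No model of another structure overlapped 20 of them (52.6%, 35.8% to 69.0%), and 14 lay inside an intron of a model on the same strand (36.8%, 21.8% to 54.0%). MIR25 lay in an intron of MCM7, a subunit of the replicative helicase and the known host of this microRNA in mammals. MIR24-1 lay in an intron of C8H9orf3, MIR664B in RAB3GAP2, MIR6527 in ADNP, and both MIR2473 and MIR2474 in SHB. MIR17 and MIR92A-1, which belong to a microRNA cluster known for promoting proliferation, were neighbours on chromosome 12 (65689417 to 65689500 and 65690118 to 65690195), and no other model overlapped either. MIRLET7A-1 and MIRLET7C of the let-7 family, MIR31, MIR146A and MIR484 were also without an overlapping model. MIR371, from a cluster known in mammals from pluripotent cells and placenta, lay inside an exon of another model with its own name. These hairpins were chosen for naming after their positions were seen. How hairpin models arose in a library described as made from polyadenylated RNA was not tested.

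**Figure D2:**
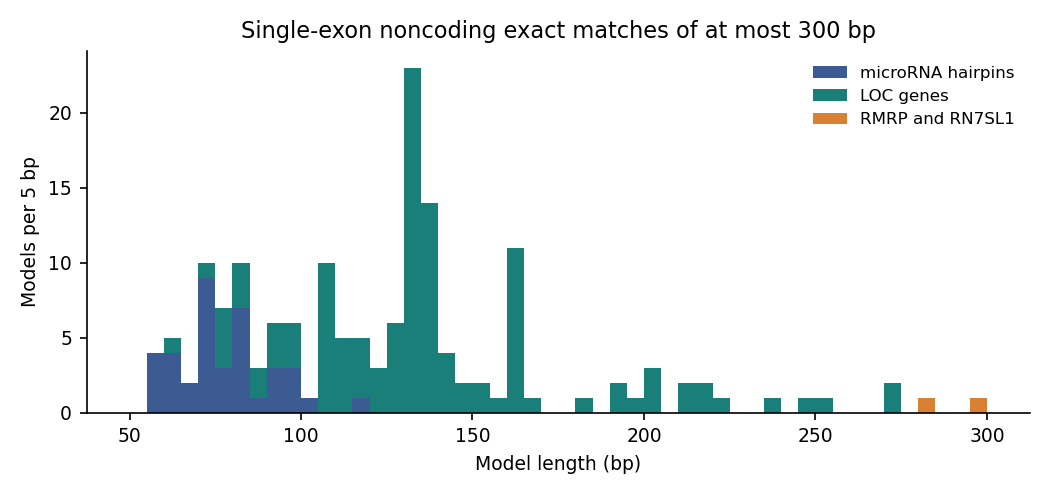
Number of models per 5 bp (vertical axis) by model length in bp (horizontal axis) for the 160 single-exon noncoding exact matches of at most 300 bp, stacked by class. Hairpins occupy 57 to 118 bp, and the LOC models form peaks at 107, at 130 to 135 and at 164 bp.

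Single-exon models of LOC genes numbered 151, and 120 of them were at most 300 bp long. Of these 120, 56 lay inside an intron of a model on the same strand (46.7%, 37.5% to 56.0%), 5 inside an intron on the opposite strand, and 50 overlapped no other model (41.7%, 32.7% to 51.0%). The host models of these 56 carried 50 gene names, of which 31 had an exact coding match. For LOC112442809 and LOC112444388 the host was another model of the same name. LOC112448923 and LOC112449403 had hosts of 2 names each, so the 50 names are not all separate host genes. TEX14, required in mice for the bridges between germ cells, held 4 of the 56 models, of 211 to 216 bp each. SNHG3 held 3, each of 204 bp. KHDC4, RPL5 and WDR43 held 2 each. Several hosts, named here after they were seen, encode parts of the translation machinery or work in ribosome assembly. They included the ribosomal proteins RPL5, RPL13 and RPLP2, the initiation factors EIF2A, EIF3A and EIF4H, and WDR43, a factor of small subunit assembly. Introns of such genes are known hosts of small nucleolar RNAs, but the files do not say which RNAs these LOC entries are.

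Certain lengths recurred among the short LOC models. The commonest was 164 bp, in 11 models on 8 chromosomes, followed by 107 bp in 7 models on 6 chromosomes or scaffolds. Of these 18 models, 17 overlapped no other model (94.4%, 72.7% to 99.9%) and 0 lay in an intron of a model on the same strand (upper limit 18.5%). Lengths of 130 to 135 bp accounted for 29 of the 120 short models (24.2%, 16.8% to 32.8%), and 19 of those 29 lay in introns on the same strand (65.5%, 45.7% to 82.1%). A pair of the 164 bp models, LOC112442807 and LOC112442818, stood next to each other on chromosome 19 (9650526 to 9650689 and 9651703 to 9651866). LOC112443337 and LOC112443344, also of 164 bp, lay within the same 10 kb or so of chromosome 21, on opposite strands (44987784 to 44987947 and 44996108 to 44996271). Whether these lengths were read from the cDNA or taken over from the reference was not tested. The groups were formed after the lengths were seen.

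The spliced LOC models comprised 477 models of 426 genes, and many began beside a coding gene. A model was counted as head to head when its start lay within 1 kb of the start of an exact coding match of another gene on the opposite strand. This held for 162 of the 477 models (34.0%, 29.7% to 38.4%) and for 1907 of 13349 spliced coding exact matches (14.3%, 13.7% to 14.9%). Counted by gene, it held for 132 of 426 LOC genes (31.0%, 26.6% to 35.6%) and 982 of 7820 coding genes (12.6%, 11.8% to 13.3%). Exact coding matches of other genes were also sought on both strands. None had an overlapping exon or a start within 5 kb for 62.7% of the spliced LOC models (58.2% to 67.0%). For spliced coding exact matches the share was 79.9% (79.2% to 80.6%). Of the 162 head-to-head models, 132 had the nearest coding start upstream of their own, and 30 had it downstream. The median distance between the starts was 131.5 bp (quartiles 68 and 266.75 bp), and 59 models started within 100 bp. Noncoding isoforms of coding genes were head to head in 46 of 226 cases (20.4%, 15.3% to 26.2%). For coding exact matches the median distance was 158 bp (quartiles 77.5 and 285 bp).

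**Figure D3:**
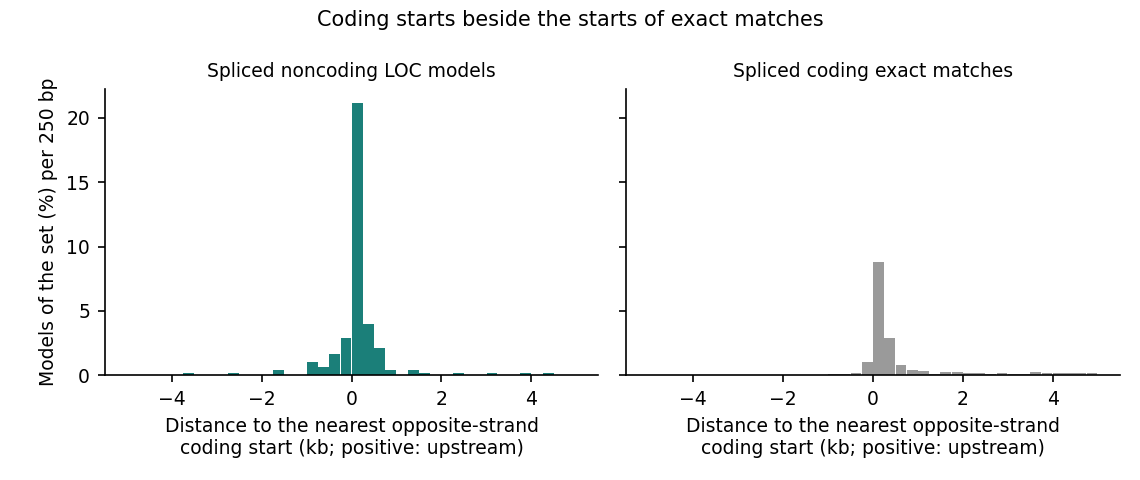
Share of models (%, vertical axis) per 250 bp of distance to the nearest start of an exact coding match on the opposite strand (kb, horizontal axis; positive where that start lies upstream), for 477 spliced noncoding LOC models at the left and 13349 spliced coding exact matches at the right. Both sets peak within 250 bp upstream, and the peak is higher for the noncoding models.

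The closest pairs lay within a few bases. The start of PPP4R3B, a regulatory subunit of protein phosphatase 4, lay 1 bp downstream of the start of LOC107132924 (3 exons, 1478 bp, chromosome 11). The start of CCZ1, an activator of a Rab GTPase of the endosome, likewise lay 1 bp downstream of that of LOC100850875 (3 exons, 688 bp, chromosome 25). For LOC100848538 (4 exons, 1260 bp, chromosome 7), the start of RANBP3, a cofactor of nuclear export, lay 3 bp downstream. The 5 models of LOC101904042 (5 or 6 exons, 822 to 1047 bp, chromosome 27, 25053034 to 25061502) started 4 to 36 bp from ERI1, a 3′ exonuclease of histone mRNA, and all ended at the same base. Listed genes of splicing, ribosome biogenesis and cell cycle were partners in 3 cases, among 132 head-to-head LOC genes. Of these lists 48, 46 and 32 genes had an exact coding match, out of 8099 coding genes in all. Whether the 3 cases exceed that share was not tested. LOC104973431 had 3 models, the closest 49 bp from SF3B6, a subunit of the splicing factor SF3B. LOC101902712 started 97 bp from NOP56, a core protein of small nucleolar ribonucleoproteins, and LOC112442024 started 83 bp from PLK4, the kinase that starts centriole duplication.

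LOC100336777 had the most noncoding exact matches of any gene, 8 models on chromosome 16 (72108740 to 72129233). They were built from 3 or 4 exons, with lengths of 641 to 1566 bp, and had 7 starts but only 2 ends. The coding gene on the other side was RCOR3, a corepressor of the CoREST family, with 4 exact coding matches of 12 or 13 exons. The nearest RCOR3 start lay between 207 bp downstream and 269 bp upstream of the noncoding starts. A further 2 models of LOC100336777 on its strand had other structures.

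**Figure D4:**
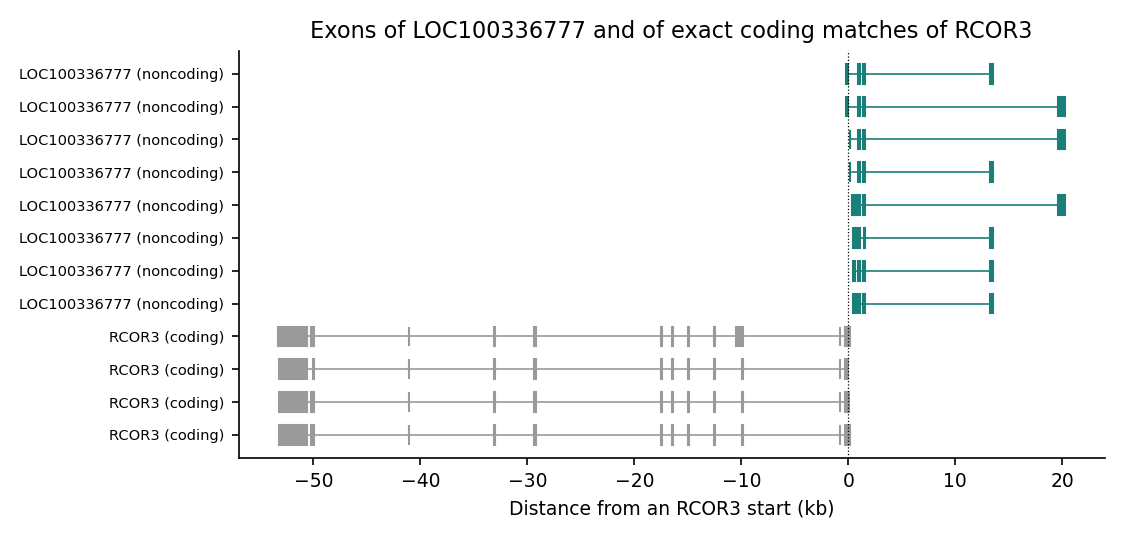
Exons (boxes) and introns (lines) of the 8 noncoding models of LOC100336777, above, and the 4 exact coding matches of RCOR3, below, by distance from an RCOR3 start (kb, horizontal axis). The genes run in opposite directions, and the LOC100336777 models share 2 ends.

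Other LOC genes also had several models, and their size varied widely. Among genes with 3 models, LOC100848598 used 3 starts and 1 end, and LOC101905734 used 1 start and 1 end. LOC100847118, LOC100847363, LOC100847947, LOC101902705 and LOC107131948 also had 3 models each, with 1 or 2 starts and 1 or 2 ends. LOC104976274 packed 12 or 13 exons into 3334 bp of chromosome 29 (41155037 to 41158370), the most exons of any LOC model, with spliced lengths of 653 to 818 bp. LOC101902479 had the longest spliced RNA, 5963 bp in 3 exons, and LOC100847951 covered the widest stretch, 357987 bp of chromosome 23 with 9 exons. After LOC101902037, the shortest spliced models were LOC112445083 with 201 bp, LOC112442037 with 223 bp, LOC112447036 with 226 bp and LOC104975179 with 228 bp. Exons of 37 of the 477 spliced LOC models (7.76%, 5.52% to 10.5%) overlapped those of an exact coding match on the opposite strand. On the same strand, 0 of 477 overlapped an exact coding match of another gene (upper limit 0.770%).

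Genes with spliced LOC models had several models less often than coding genes. More than 1 model on their own strand was found for 154 of 426 (36.2%, 31.6% to 40.9%), compared with 5382 of 8099 coding genes with an exact match (66.5%, 65.4% to 67.5%). LOC112442075 had 9 further models, LOC112447490 had 8, LOC100847951 and LOC112442020 had 7 each, and LOC100126043 and LOC107131350 had 6 each. For LOC112442075, all 9 shared a splice junction with the reference. Among genes of single-exon LOC models, 11 of 151 had a further model (7.28%, 3.69% to 12.7%).

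Noncoding isoforms were found for 170 of 8099 genes with an exact coding match (2.10%, 1.80% to 2.44%). HNRNPA2B1 had the most, with 7 noncoding and 7 coding exact matches. CSNK1G1, a casein kinase, had 5, ZC3H11A, a zinc finger protein of mRNA export, had 4, and LOC112444288 had 4. HNRNPD, an AU-rich element binding protein, SF3B1, the core subunit of the splicing factor SF3B, the splicing regulator SRSF2, the helicase EIF4A2, the RNA-binding protein RBM4B, LSM14A of P-bodies, RSRP1, MARCH7, PGS1 and STX4 had 3 each. Of 19 HNRNP symbols with a model on their own strand, 4 had a noncoding exact match (HNRNPA1, HNRNPA2B1, HNRNPD and HNRNPDL). HNRNPA1 had 0 exact coding matches and is not among the 170 genes. Of the 13938 gene names carried by bovine models of any class code, 817 had a noncoding exact match. The HNRNP family was picked after its values were seen, and whether it exceeds the share over all genes was not tested. Of 50 listed splicing genes 3 had a noncoding isoform, SF3B1, SRSF1 and SRSF2 (6%, 1.25% to 16.5%). Of the 50, 48 had an exact coding match, and the interval includes the overall share of 2.10%. Among 42 listed silencing genes 1 did, ATF7IP, a partner of the methyltransferase SETDB1. None of the 50 listed ribosome biogenesis genes, 34 maternal genes, 41 cell cycle genes, 28 lineage genes or 20 activation genes did. In that order, 46, 26, 32, 9 and 6 of them had an exact coding match. At a share of 2.10%, few or none would be expected in lists of this size.

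Each noncoding isoform was set beside the exact coding match of the same gene that differed from it in the fewest introns, which 223 of 226 had. An exon added within the coding structure was the most frequent difference, found in 81 of 223 noncoding isoforms (36.3%, 30.0% to 43.0%). The same comparison among coding isoforms gave 1031 of 8245 (12.5%, 11.8% to 13.2%). Another splice site was used in 31.4% of noncoding isoforms (25.4% to 37.9%) and 44.8% of coding isoforms (43.7% to 45.8%). A further intron inside a coding exon occurred in 11.2% of noncoding (7.39% to 16.1%) and 2.17% of coding isoforms (1.87% to 2.51%), and a retained intron in 6.28% of noncoding (3.47% to 10.3%) and 1.94% of coding isoforms (1.65% to 2.26%). A different last exon was found in 19.7% of noncoding (14.7% to 25.6%) and 5.89% of coding isoforms (5.40% to 6.42%). A different first exon was rarer in the noncoding isoforms, at 2.69% (0.994% to 5.76%), than in the coding ones, at 19.95% (19.1% to 20.8%). Coding isoforms were compared with each other, so that an added exon in 1 of a pair can be a skipped exon in the other.

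Most stretches inserted or removed in the noncoding isoforms had a length that was not a multiple of 3 bp. Lengths unrelated to the reading frame would also mostly not be a multiple of 3 bp. Where the isoforms differed by 1 internal change of known length, that length was not a multiple of 3 bp in 103 of 134 noncoding isoforms (76.9%, 68.8% to 83.7%) and in 2313 of 5414 coding isoforms (42.7%, 41.4% to 44.1%). All 15 noncoding isoforms with only a skipped exon had a length that was not a multiple of 3 bp (78.2% to 100%), and so did 46 of 67 with only an added exon (68.7%, 56.2% to 79.4%). The median added exon had 107 bp in noncoding isoforms and 91 bp in coding ones. The reference may have given its noncoding label on the basis of the reading frame, so the shift is not independent of how the models were chosen. The change may also lie outside the coding sequence, which the files do not mark.

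**Figure D5:**
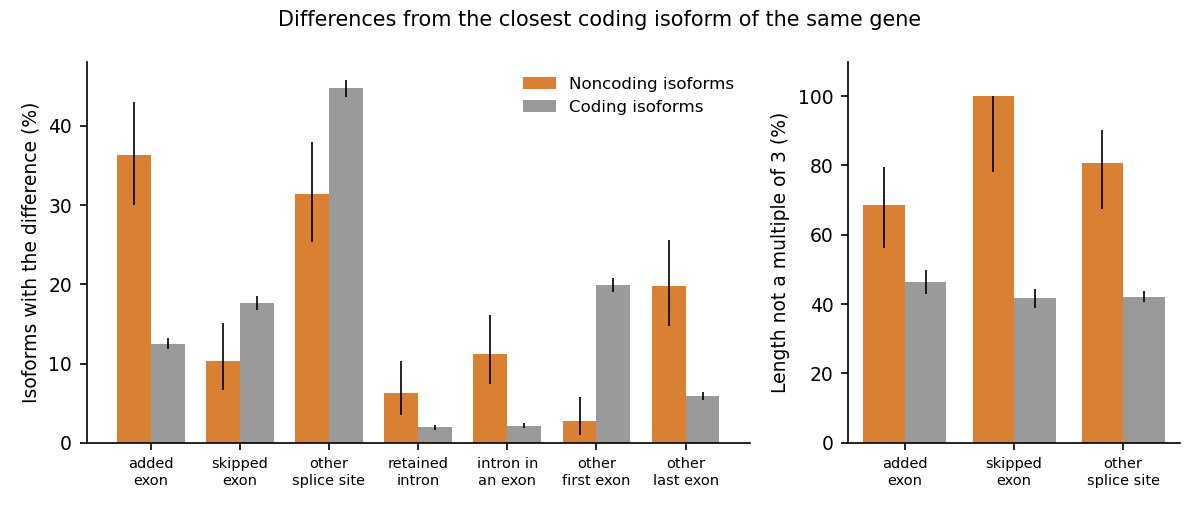
Left, share of isoforms (%) with each kind of difference from the closest exact coding match of the same gene, for 223 noncoding and 8245 coding isoforms. Right, share (%) with a length that is not a multiple of 3 bp among isoforms with 1 such difference; bars on the columns are exact 95% intervals, and the noncoding columns stand above the coding ones in all 3 kinds.

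Of 13 genes with several noncoding isoforms that differed only by an added exon, 7 had the same added length in all of them, 2 in some and 4 in none. HNRNPD gained 107 bp in 2 models and 71 bp in the third, each relative to a coding isoform with 1 exon fewer. HNRNPDL gained 105 bp in both of its models, SON, a nuclear speckle protein, 80 bp in both, and RBM4B 103 bp in 2 of 3. LSM14A gained 187 bp in 2 models and 57 bp in the other, while ATF7IP gained 159 bp and BCLAF1 162 bp in both of their models. EIF4A2 gained 111 bp in 1 model and 107 bp in another, and the lengths also differed in MAX (89 and 101 bp), IMPACT (86 and 130 bp) and TSC22D2 (159 and 79 bp). SF3B1 gained 70 bp in a model of 26 exons and lost 121 bp in a model of 25 exons. In SRSF2, 1 model gained an exon of 104 bp and the other 2 had introns spliced out of a coding exon, and the noncoding model of SRSF1, a splicing regulator of the same family, likewise had an intron inside a coding exon. HNRNPA2B1 differed in more ways, with longer or shorter splice-site choices in 3 models (1218, 531 and -63 bp), an added exon of 1354 bp in 1, and another last exon in 3. The 4 noncoding models of ZC3H11A had 4 exons and 6131 to 6534 bp, set beside coding models of 20 exons, and each had a retained intron and another last exon.

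Skipped exons and long models completed the set. SRRM2, a spliceosome protein, had the longest noncoding exact match, 8740 bp, which lacked an exon of 272 bp. SON followed with 8527 and 8474 bp, USP37 with 7772 bp and NRF1 with 6627 bp. TPP2, a large peptidase, had the most exons, 30, with a splice site moved by 11 bp. GIGYF2 had 29 exons, and MTREX, the helicase of the nuclear exosome, 26 with an exon of 163 bp left out. Further examples, chosen after their values were seen, were HIF1A, which lacked 109 bp, EED, a subunit of the Polycomb repressive complex, which gained 85 bp, and OOSP2, an oocyte-secreted protein, which lacked 182 bp.

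The ends of the noncoding isoforms often coincided with those of coding models. The start equalled that of an exact coding match of the same gene to the base in 120 of 226 (53.1%, 46.4% to 59.7%), the end in 122 (54.0%, 47.2% to 60.6%), and both in 78 (34.5%, 28.3% to 41.1%). Among noncoding models of genes with at least 2 of them, 98 of 192 shared both ends with another. Whether such ends were read from the cDNA or taken over from the reference was not tested.

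The noncoding exact matches were spread over all 30 chromosomes, with 14 on unplaced scaffolds. Relative to coding exact matches, LOC models were most frequent on chromosome 27, with 15 LOC models for 141 coding models (10.6 per 100), and chromosome 16, with 31 for 351 (8.83 per 100). Of these, 5 on chromosome 27 came from LOC101904042 and 8 on chromosome 16 from LOC100336777. Without those genes the values were 7.09 and 6.55 per 100, beside 7.74 per 100 on chromosome 21 (6.77 without its gene with most models). They were least frequent on chromosomes 25 (2.51 per 100) and 7 (2.52 per 100).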

How the data were processed

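For each library, 1 set of models assembled by StringTie was used as deposited by the authors; per the file headers and attributes, it holds exon positions in base pairs, a gene name, the closest reference transcript and a class code. The models carry no read counts, so depth is unknown. Builds were bosTau9 and mm10, per the submitters' processing notes; settings of the alignment and assembly were not given in the sources used here. A length minimum or merging with the reference would change which short models and which ends appear.

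Exon number, spliced length and positions were computed from the models. Intervals are exact Clopper-Pearson 95% intervals (scipy 1.17.1). Own-strand models have class codes =, c, k, m, n, j or o. The isoform comparison, tested on simulated data, the recurrent lengths and the intron hosts were added after the data were seen. Named genes are those with 3 or more members, found genes of the lists, the 5 extremes of exon number, length and shortness, the 5 closest head-to-head pairs and the 5 with most other models; all other names, BCLAF1, RPS27 and PHF12 among them, were chosen after their values were seen. Member lists and rules were chosen with earlier results of these data known. No bovine genome sequence was used here.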

Additional observations from a re-analysis of the deposited data

How the results depend on the processing

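Several values moved where the alternative itself redefines the set or the distance. Curated references alone left 71 models of 65 genes, and all 7 own-strand class codes gave 2695 models of 1548 genes, against 936 and 817. Of all noncoding models, 24.1% began head to head within 1 kb, 19.7% within 500 bp, and 28.0% when the starts of all own-strand coding models were used; for spliced LOC models that last share was 40.04% against 34.0%. The median length of 889 bp became 1080 bp with at least 2 exons and 659 bp without the isoforms of coding genes, which also lowered the median exon number to 2. In alternatives chosen after seeing the data, coding isoforms of the 170 genes alone had a length that was not a multiple of 3 in 47.0% and an added exon in 15.5%, and counting each coding pair once gave an added exon in 11.6%. Of the other 18 of 31 alternatives, 8 were counts of models or genes within 1.5 times the main count, and 10 stayed within the counting interval. The absence of replicates, counts and depth limits every value to a description. No paired analysis was possible because each species had 1 library and no test was made.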
